A study of Mus musculus with 6 samples.

Results

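Genes of sphingolipid and ceramide metabolism were examined in the livers of 6 mice that lack CREB-H, a membrane-bound transcription factor of hepatocytes. The 35 listed genes cover the synthesis of ceramide, its conversion to sphingomyelin, glucosylceramide and ceramide phosphate, and the turnover of sphingosine phosphate. Members were found by the gene symbol that the array's annotation gives to a probe set, and a gene with several probe sets is given by the one with the highest mean over the 6 arrays. In this way 33 of the 35 genes were measured, out of 22180 genes with a probe set of a single symbol. Sptssa and Cers1 each had 1 probe set that the annotation shares with other genes, and neither is given a value. The genes were listed by their function in the pathway, and the list was drawn up with earlier results of these data known.

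One group, of 3 mice, was injected with a liver-targeting adeno-associated virus that carries CREB-H-ΔTC, the active form of the factor (AAV-CREB-H-ΔTC). The other, also of 3 mice, received the same kind of virus with green fluorescent protein (AAV-GFP). All 6 animals carried the CREB-H knockout allele Creb3l3tm1.1Sad/J and were given as 8 weeks old on a normal diet, and the livers were taken 2 weeks after injection. The comparison therefore sets an active form supplied by a virus against its absence, with no liver of normal CREB-H level. The sources used here do not name the promoter of either transgene. Whole liver was used, so fewer cells of a type and less RNA per cell cannot be told apart.

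Sphingolipids are built on a long-chain base rather than on glycerol. Serine palmitoyltransferase condenses serine with palmitoyl-CoA in the endoplasmic reticulum, ceramide synthases attach a fatty acid, and a desaturase completes ceramide, which receives its head group in the Golgi. Ceramidases release sphingosine from ceramide, and sphingosine kinases turn it into the signalling lipid sphingosine 1-phosphate, whose cleavage by a lyase is the one way out of the pathway. In the liver, ceramides with long acyl chains are known for their link to insulin resistance and fat accumulation, and part of the sphingolipid made there leaves in lipoproteins.

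The 4 promoters below belong to the genes with the lowest unadjusted p in the limma fit described below, Sphk2, Ormdl3, Ugcg and Smpd2. Their groups of arrays did not overlap. The groups of Sphk1 did not overlap either, but its windows, some of which hold TGACG, are not shown. Each window runs from 250 bases before to 50 bases after a start annotated by RefSeq on build GRCm38.p6, 5′ to 3′ on the strand of the gene. Capitals mark TGACG, the core of the cyclic AMP response element that proteins of the CREB and ATF families are known to bind, and CCACG, the second part of the endoplasmic reticulum stress element, on either strand.
Sphk2, chr7:45717953-45718252, minus strand: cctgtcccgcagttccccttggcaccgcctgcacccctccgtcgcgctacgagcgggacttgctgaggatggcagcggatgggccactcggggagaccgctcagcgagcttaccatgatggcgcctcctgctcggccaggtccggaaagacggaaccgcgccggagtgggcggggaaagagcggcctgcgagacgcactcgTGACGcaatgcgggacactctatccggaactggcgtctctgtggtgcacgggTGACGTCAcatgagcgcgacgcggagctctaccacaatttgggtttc
Ormdl3, chr11:98587196-98587495, minus strand: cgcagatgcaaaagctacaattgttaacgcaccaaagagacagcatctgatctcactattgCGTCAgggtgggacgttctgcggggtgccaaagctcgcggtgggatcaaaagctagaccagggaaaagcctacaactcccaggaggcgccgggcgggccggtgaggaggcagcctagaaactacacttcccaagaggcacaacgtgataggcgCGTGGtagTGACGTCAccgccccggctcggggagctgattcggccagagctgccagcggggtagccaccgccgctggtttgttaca
Ugcg, chr4:59189300-59189599, plus strand: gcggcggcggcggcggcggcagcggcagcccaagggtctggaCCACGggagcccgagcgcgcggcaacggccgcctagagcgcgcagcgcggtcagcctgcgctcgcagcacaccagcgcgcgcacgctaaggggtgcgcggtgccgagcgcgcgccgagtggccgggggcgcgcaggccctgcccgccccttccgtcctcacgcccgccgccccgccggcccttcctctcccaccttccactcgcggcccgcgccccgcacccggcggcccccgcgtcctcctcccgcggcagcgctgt
Smpd2, chr10:41490291-41490590, minus strand: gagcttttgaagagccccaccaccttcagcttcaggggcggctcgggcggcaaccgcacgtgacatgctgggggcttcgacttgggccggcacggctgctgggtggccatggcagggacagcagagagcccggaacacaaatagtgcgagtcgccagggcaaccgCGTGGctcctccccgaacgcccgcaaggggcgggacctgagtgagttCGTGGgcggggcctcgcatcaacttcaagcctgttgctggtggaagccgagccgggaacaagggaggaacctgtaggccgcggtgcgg

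The full palindrome TGACGTCA, which contains TGACG on both strands, was found in the windows of Sphk2 and Ormdl3. In Sphk2 its first base lay at position 4 counted from the annotated start, and in Ormdl3 28 bases before the start. This Sphk2 window is 1 of 2 that RefSeq gives for the gene, and the other held CCACG but no TGACG. Sphk2 was higher and Ormdl3 lower with AAV-CREB-H-ΔTC, as given below, and neither passed the test. Whether the palindrome has a part in the level of either gene was not tested. The windows of Ugcg and Smpd2 held no TGACG. Of the 35 genes, 32 had at least 1 window and 47 windows in all; Asah1, Fa2h and Smpd3 did not match. TGACGTCA was in 2 of the 47 windows (4.26%), against 588 of all 32851 RefSeq windows of the same length (1.79%), and TGACG was in 12 (25.5%), against 20.8% of all windows. TGACGT, which also lies within the palindrome, was in 3 windows (6.38%, against 7.51%), and TGACGTGG was in none (0.676% of all windows). CCACG was in 28 of the 47 windows (59.6%), against 32.8% of all windows. The windows of the sphingolipid genes were richer in CG pairs, with a median of 20 per window against 7 over all windows, and each of these motifs contains a CG pair. Some windows of a gene overlap, so the counts are not of independent sequences.

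With limma, and p-values adjusted over all 41345 probe sets, 0 of the 33 measured genes passed, while 2 probe sets (0.00484%) of the whole table did. The lowest adjusted p among them was 0.627, for Sphk2. At an unadjusted p under 0.05 there were 5 of 33 genes (15.2%), 3 higher (Sphk2, Ugcg, Sgms2) and 2 lower (Smpd2, Ormdl3) with AAV-CREB-H-ΔTC, against 5.73% of the 22180 genes (3.29% higher and 2.43% lower). The 3 AAV-CREB-H-ΔTC arrays did not overlap the 3 AAV-GFP arrays in 5 of 33 genes (15.2%), against 12.3% of all genes, and this share is near the background. Those 5 were Sphk2 and Ugcg on the higher side (6.25% of all genes) and Ormdl3, Smpd2 and Sphk1 on the lower side (6.01% of all genes). An exact permutation test of 1 gene over these 6 arrays, two-sided, cannot give a p below 0.1, and each of the 5 was at that bound. The median log2 difference of the 33 genes was 0.04, against 0.003 over all genes, with 20 of 33 higher (60.6%, against 50.8% of all genes) and 13 lower. A difference of at least 0.5 in size was seen in 4 of the 33 genes (12.1%), Smpd3, Sgms2, Ugcg and Cers6, against 3.08% of all genes and 4.56% of genes brighter than the median probe set. These counts describe the set and were not tested.

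**Figure D1:**
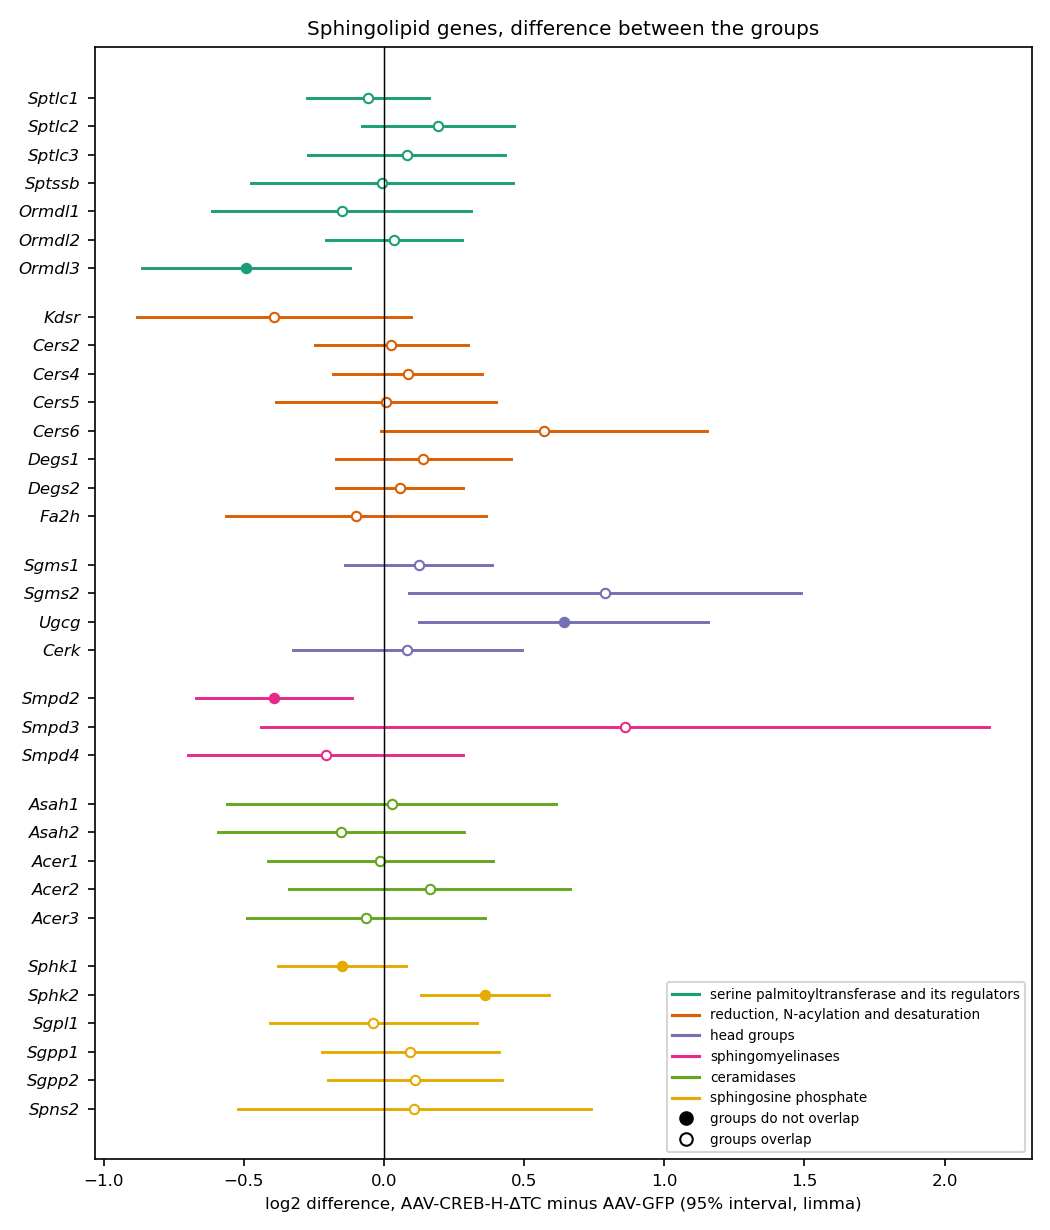
Log2 difference of each of the 33 measured sphingolipid genes, AAV-CREB-H-ΔTC minus AAV-GFP, with its 95% interval from limma, ordered by step of the pathway (colour). Filled points mark the 5 genes whose groups of 3 arrays did not overlap; the head-group genes are the 1 step whose points all lie above 0, and the interval of Smpd3 is the widest.

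Replicate 3 of each group carried signal from Y-linked genes (mean log2 signal 7.67 on the AAV-CREB-H-ΔTC array and 7.83 on the AAV-GFP array) and the other 4 arrays did not (3.15 to 3.39). The labels give no sex. Xist, a transcript of female cells, read 3.75 on AAV-CREB-H-ΔTC replicate 3 and 4.43 on AAV-GFP replicate 3. On the other 4 arrays it read 10.83 to 11.35. By these signals replicate 3 was male and replicates 1 and 2 were female in both groups. Differences are therefore also given for replicates 1 and 2 of both groups (4 arrays) and for the 2 arrays of replicate 3, a single array against a single array. The knocked-out and re-supplied gene Creb3l3 checks the labels. Its log2 signal was 6.73, 7.25 and 7.58 on the AAV-CREB-H-ΔTC arrays, against 6.55, 5.93 and 6.40 on the AAV-GFP arrays (difference 0.89, SE 0.25, adjusted p = 0.647). The groups lay apart in the direction of the labels. Of all genes 6.25% were likewise higher without overlap, so the check is a weak one. The position of the Creb3l3 probes in the transcript, and so any signal from the knockout allele, was not analysed here. Hepatocyte markers (6 of 6 genes, among them albumin) were at like levels in both groups, with differences of -0.06 to 0.12. The log2 of their summed signal was 15.55 to 15.64 with AAV-CREB-H-ΔTC and 15.43 to 15.64 with AAV-GFP. That sum rests mostly on the brightest of them, and albumin, at 13.76 to 13.87, lay at the top of the range of each array. Whether the share of hepatocytes differed was not tested.

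At the entry step the regulator Ormdl3 lay lower with AAV-CREB-H-ΔTC without passing the test, and the differences of the catalytic subunits were at most 0.19 in size. Ormdl3 is an endoplasmic reticulum protein that, with its paralogs, restrains serine palmitoyltransferase when ceramide is plentiful. Its log2 signal was 6.61, 6.70 and 6.59 on the AAV-CREB-H-ΔTC arrays, against 7.34, 7.23 and 6.80 on the AAV-GFP arrays. All 3 AAV-CREB-H-ΔTC arrays lay close together and below every AAV-GFP array, of which replicate 3 was the lowest. The difference of -0.49 (SE 0.16, 95% interval -0.86 to -0.12) corresponds to a 1.41-fold higher mean with AAV-GFP, and it did not pass (adjusted p = 0.664). It was -0.63 over replicates 1 and 2 and -0.22 between the arrays of replicate 3. Its paralog Ormdl1 differed by -0.15 (SE 0.19), with an interval of -0.61 to 0.31. Ormdl2 differed by 0.04 (SE 0.10), with an interval of -0.21 to 0.28. Whether the paralogs differ from Ormdl3 in response was not tested.

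Sptlc2, a catalytic subunit of the enzyme, read 9.17, 9.35 and 9.19 with AAV-CREB-H-ΔTC and 8.94, 9.01 and 9.18 with AAV-GFP. The highest AAV-GFP array lay within the AAV-CREB-H-ΔTC range, and the difference was 0.19 (SE 0.11, adjusted p = 0.814). Sptlc1, the partner subunit that the complex requires, differed by -0.06 (SE 0.09), with an interval of -0.27 to 0.16. Sptlc3, the alternative catalytic subunit, which accepts shorter acyl-CoAs, differed by 0.08 (SE 0.15). Sptssb, a small activating subunit, differed by -0.01 (SE 0.20). Over the 7 measured genes of this step the median difference was -0.01, with 3 higher and 4 lower.

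**Figure D2:**
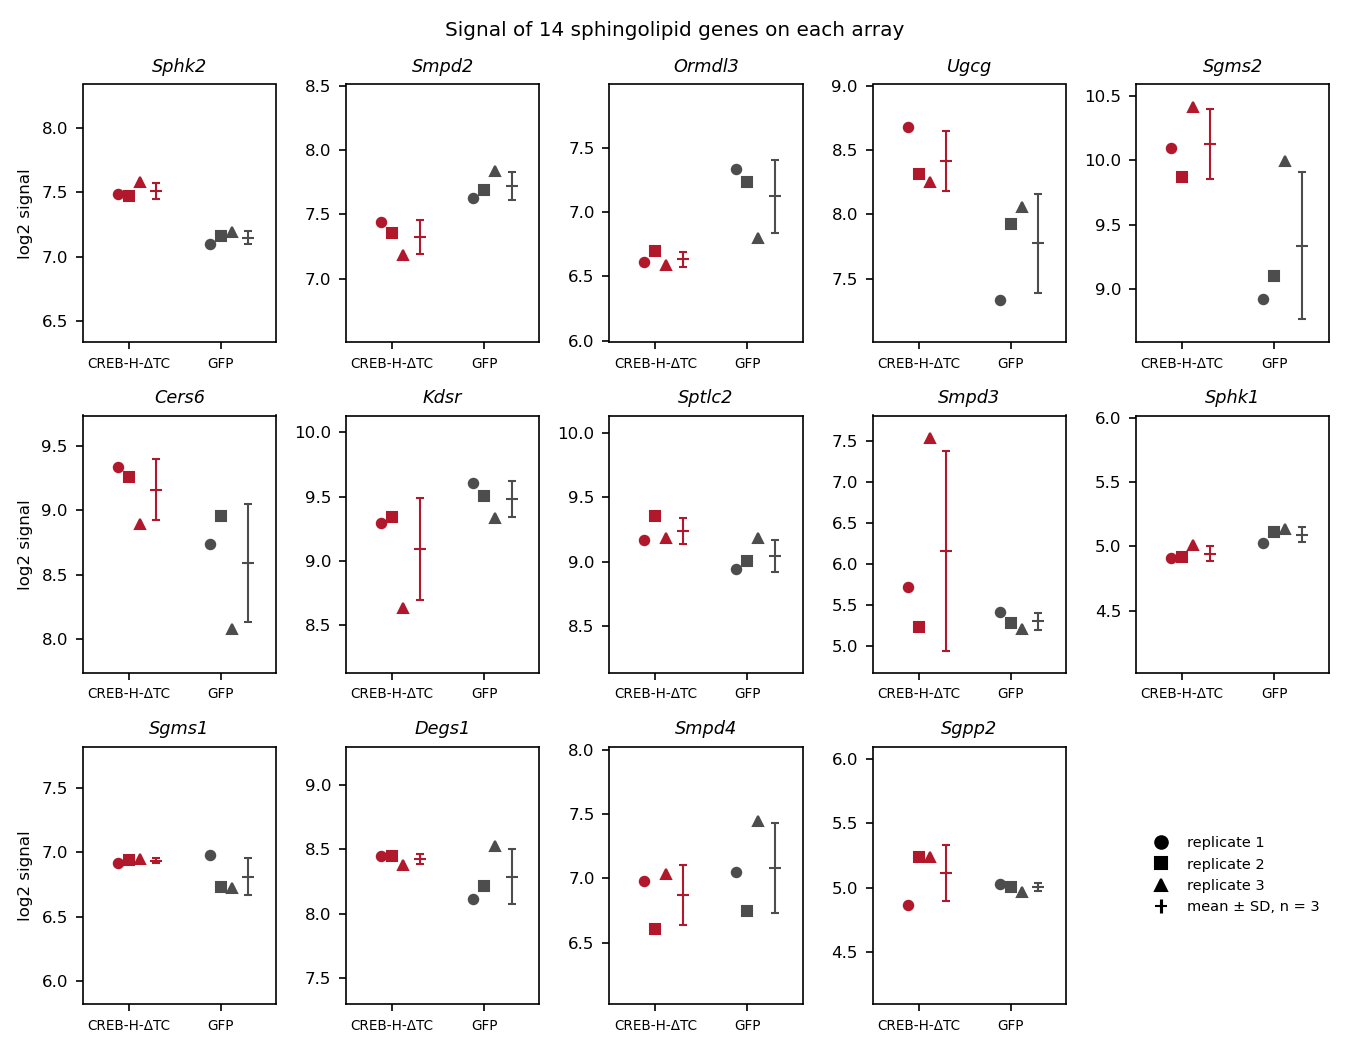
Log2 signal on each array of the 14 sphingolipid genes with the lowest unadjusted p (AAV-CREB-H-ΔTC left, AAV-GFP right; symbols give the replicate number, bars the mean ± SD of 3 arrays; every panel spans at least 2 log2 units). Sphk2 and Smpd2 have narrow groups that lie apart, the high mean of Smpd3 rests on 1 array at 7.53, and Sgms2 and Cers6 are spread over the replicates of AAV-GFP.

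In the middle of the ceramide route, Cers6 was the gene with the largest difference and Kdsr stood on the lower side. Cers6 is a synthase that makes palmitoyl ceramide. Its log2 signal was 9.33, 9.26 and 8.89 on the AAV-CREB-H-ΔTC arrays and 8.74, 8.96 and 8.08 on the AAV-GFP arrays. Replicate 3 was the lowest array of both groups, and the groups overlapped by a narrow margin. The difference was 0.57 (SE 0.24, a 1.49-fold ratio with a 95% interval of 0.993 to 2.22, adjusted p = 0.733), and it was 0.31 without AAV-GFP replicate 3. Cers2, the main synthase of very long chain ceramides in liver, differed by 0.03 (SE 0.12), and the interval of its ratio ran from 0.843 to 1.23. Its second probe set gave 0.04 (SE 0.12). Cers4 and Cers5 differed by 0.08 (SE 0.11) and 0.01 (SE 0.17), and Cers4 was at 0.02 without AAV-GFP replicate 2 and at 0.14 without AAV-CREB-H-ΔTC replicate 2.

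Kdsr, which reduces the first product of the pathway, read 9.30, 9.34 and 8.64 with AAV-CREB-H-ΔTC and 9.61, 9.51 and 9.33 with AAV-GFP. Its difference of -0.39 (SE 0.21, adjusted p = 0.797) rested on AAV-CREB-H-ΔTC replicate 3 and was -0.16 without that array. Degs1, the desaturase of the last step to ceramide, read 8.45, 8.45 and 8.38 with AAV-CREB-H-ΔTC and 8.11, 8.21 and 8.53 with AAV-GFP, so that the narrow AAV-CREB-H-ΔTC group lay inside the spread of the AAV-GFP arrays (difference 0.14, SE 0.13, adjusted p = 0.891). It was 0.06 without AAV-GFP replicate 1 and 0.26 without AAV-GFP replicate 3. Degs2, its homologue that also hydroxylates the base, differed by 0.06 (SE 0.10; 0.02 without AAV-GFP replicate 3), and Fa2h, which hydroxylates the fatty acid, by -0.10 (SE 0.20). Over the 8 measured genes of the step, 6 were higher and 2 lower, with a median of 0.04.

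The enzymes that place a head group on ceramide were all on the higher side, 4 of 4, against 50.8% of all genes. Their median log2 difference was 0.38, and the 95% intervals of Sgms1 and Cerk reached to both sides. Ugcg, which makes glucosylceramide and so opens the route to glycosphingolipids, had a log2 signal of 8.68, 8.31 and 8.26 on the AAV-CREB-H-ΔTC arrays, against 7.34, 7.93 and 8.06 on the AAV-GFP arrays. Every AAV-CREB-H-ΔTC array lay above every AAV-GFP array, with replicate 1 at both extremes. The ratio was 1.56 (95% interval 1.09 to 2.23, log2 difference 0.64, SE 0.22), and the gene did not pass (adjusted p = 0.686). Without AAV-GFP replicate 1 the log2 difference was 0.42. Over replicates 1 and 2 it was 0.86, and between the arrays of replicate 3 it was 0.20.

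Sgms2, a sphingomyelin synthase that also works at the plasma membrane, read 10.10, 9.87 and 10.41 with AAV-CREB-H-ΔTC and 8.92, 9.10 and 9.99 with AAV-GFP. Replicate 3 was the highest array of both groups, and AAV-GFP replicate 3 reached into the other group. The ratio was 1.73 (95% interval 1.06 to 2.81, log2 difference 0.79, SE 0.30, adjusted p = 0.696), and the log2 difference was 0.97 over replicates 1 and 2 and 0.42 between the arrays of replicate 3. Sgms1, the Golgi sphingomyelin synthase, read 6.91, 6.94 and 6.95 with AAV-CREB-H-ΔTC and 6.98, 6.73 and 6.73 with AAV-GFP. The highest of its 6 arrays was an AAV-GFP one, and the difference was 0.12 (SE 0.11, interval -0.14 to 0.38, adjusted p = 0.885), with 0.21 without AAV-GFP replicate 1 and 0.08 without AAV-GFP replicate 3. Cerk, which phosphorylates ceramide, differed by 0.08 (SE 0.17), with a turn of sign to -0.06 when AAV-CREB-H-ΔTC replicate 2 was left out.

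The sphingomyelinases, which return sphingomyelin to ceramide, lay on both sides. Smpd2, a neutral sphingomyelinase, had a log2 signal of 7.44, 7.35 and 7.18 on the AAV-CREB-H-ΔTC arrays, against 7.63, 7.69 and 7.84 on the AAV-GFP arrays. The groups did not overlap, and replicate 3 held both extremes. Its mean was 1.31-fold higher with AAV-GFP (log2 difference -0.39, SE 0.12, 95% interval -0.67 to -0.11, adjusted p = 0.647), and the difference was -0.26 over replicates 1 and 2 and -0.66 between the arrays of replicate 3. Smpd3, the neutral sphingomyelinase known from exosome release, read 5.72, 5.22 and 7.53 with AAV-CREB-H-ΔTC and 5.41, 5.27 and 5.21 with AAV-GFP. A single array, AAV-CREB-H-ΔTC replicate 3, stood far above the other 5. The difference of 0.86 (SE 0.55, adjusted p = 0.827) was 0.17 without that array and 1.33 without AAV-CREB-H-ΔTC replicate 2.

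Smpd4, a further neutral sphingomyelinase of the endoplasmic reticulum and nuclear envelope, read 6.98, 6.61 and 7.03 with AAV-CREB-H-ΔTC and 7.05, 6.75 and 7.44 with AAV-GFP. Within each group replicate 2 was the lowest and replicate 3 the highest, and the groups overlapped (difference -0.21, SE 0.21, adjusted p = 0.897). It was -0.03 without AAV-GFP replicate 3, -0.38 without AAV-GFP replicate 2 and -0.08 without AAV-CREB-H-ΔTC replicate 2.

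The ceramidases had differences of at most 0.16 in size, and most of them were lowest on replicate 3 of both groups. Asah1, the acid ceramidase of the lysosome, read 8.75, 8.87 and 8.06 with AAV-CREB-H-ΔTC and 8.74, 8.65 and 8.21 with AAV-GFP (difference 0.03, SE 0.25). Asah2, the neutral ceramidase, differed by -0.15 (SE 0.19; -0.003 without AAV-GFP replicate 1 and -0.31 without AAV-GFP replicate 3), and the alkaline ceramidases Acer1, Acer2 and Acer3 by -0.01 (SE 0.17), 0.16 (SE 0.21) and -0.06 (SE 0.18). The median of the 5 genes was -0.01. Replicate 3 was the lowest array of both groups in 4 of the 5, Asah1, Asah2, Acer1 and Acer2. Among the 33 genes this held for 8 (24.2%), with Cerk, Cers6, Kdsr and Ormdl3 as the others, against 15.7% of all genes. Replicate 3 was the highest array of both groups in 5 (15.2%, Sgms2, Smpd4, Sphk1, Sphk2 and Spns2), against 16.4% of all genes. Replicate 3 is also the replicate with Y-linked signal in both groups, and the part of that signal's source in these levels was not tested.

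**Figure D3:**
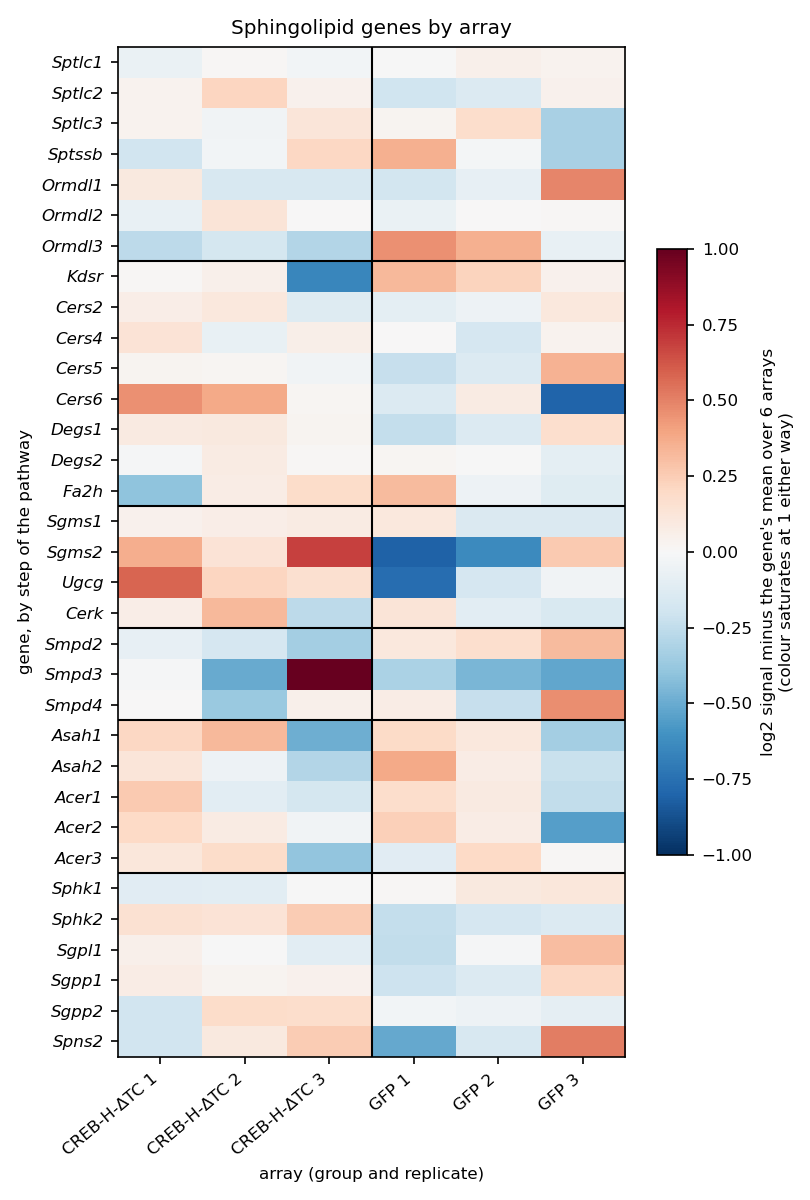
Log2 signal of the 33 genes on each of the 6 arrays, as the deviation from the gene's own mean (red above, blue below, saturated at 1 either way), with the AAV-CREB-H-ΔTC arrays on the left and black lines between the steps of the pathway. Smpd3 stands out on AAV-CREB-H-ΔTC replicate 3, 4 of the 5 ceramidases are lower on replicate 3 of both groups than on replicates 1 and 2, and Sphk2 is red on the left and blue on the right.

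Of the sphingosine phosphate genes, the 2 kinases lay on opposite sides. Sphk2, the kinase of the nucleus, mitochondria and endoplasmic reticulum, had a log2 signal of 7.48, 7.47 and 7.58 on the AAV-CREB-H-ΔTC arrays, against 7.10, 7.16 and 7.19 on the AAV-GFP arrays. Both groups were narrow and lay apart. The log2 difference was 0.36 (SE 0.10, 95% interval 0.13 to 0.59), a ratio of 1.29, and the gene did not pass (adjusted p = 0.627). The difference was 0.35 over replicates 1 and 2 and 0.39 between the arrays of replicate 3, and it stayed between 0.33 and 0.38 when any 1 array was left out. Sphk1, the mainly cytosolic kinase that growth factors activate, read 4.91, 4.92 and 5.01 with AAV-CREB-H-ΔTC and 5.03, 5.12 and 5.13 with AAV-GFP. These groups also lay apart, by less than 0.1 between the nearest arrays, and the difference was -0.15 (SE 0.10, interval -0.38 to 0.08, adjusted p = 0.833).

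Sgpl1, the lyase that ends the pathway, differed by -0.04 (SE 0.16). Sgpp1 and Sgpp2, the phosphatases that return sphingosine 1-phosphate to sphingosine, differed by 0.09 (SE 0.13; 0.04, SE 0.10, in its second probe set) and 0.11 (SE 0.13). Sgpp1 was at 0.013 without AAV-GFP replicate 1 and at 0.22 without AAV-GFP replicate 3. Sgpp2 read 4.87, 5.24 and 5.24 with AAV-CREB-H-ΔTC and 5.03, 5.01 and 4.97 with AAV-GFP, so that the lowest and the highest of its 6 arrays were both AAV-CREB-H-ΔTC arrays (adjusted p = 0.911). Its difference was 0.24 without AAV-CREB-H-ΔTC replicate 1 and 0.05 without either of the other 2 arrays of that group. Spns2, the exporter of sphingosine 1-phosphate, differed by 0.11 (SE 0.27), and its AAV-GFP arrays, at 6.65, 7.00 and 7.67, spanned the AAV-CREB-H-ΔTC arrays at 6.97, 7.26 and 7.42. Over the 6 genes the median was 0.10, with 4 higher and 2 lower.

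For most of the genes the interval of the measured difference was narrow. The 95% interval lay within 1.5-fold either way in 19 of the 33 genes and within 2-fold in 29. The 4 that reach beyond 2-fold are Cers6, Sgms2, Smpd3 and Ugcg, and 15 genes differed by under 0.1. The SE of the 33 genes ran from 0.09 to 0.55, with a median of 0.17. The number of arrays limits this precision. Among the 19 genes are Sptlc3, Sptssb, Acer1, Degs2 and Fa2h, which were no brighter than the median probe set. A difference between dim signals can come out too small, so their narrow intervals do not bound the size of a change.

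Within the arrays of one kind, 17 of the 33 genes (51.5%) had the same direction on the 4 arrays that lacked Y-linked signal and on the 2 that carried it, 10 higher and 7 lower with AAV-CREB-H-ΔTC, and 16 had opposite directions. Over all genes 52.5% had the same direction. Sphk2, Sphk1, Ugcg, Sgms2, Cers6, Smpd3, Smpd2, Ormdl3 and Kdsr were among the 17.

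**Figure D4:**
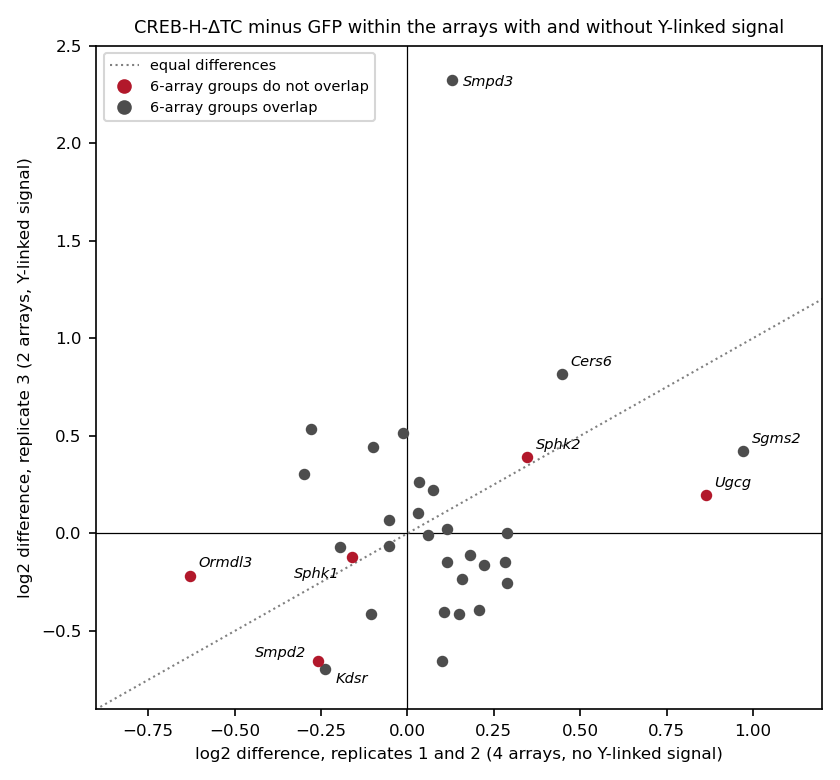
Log2 difference, AAV-CREB-H-ΔTC minus AAV-GFP, of the 33 genes on the 4 arrays without Y-linked signal (replicates 1 and 2, horizontal axis) and between the 2 arrays with it (replicate 3, vertical axis). Red points are the 5 genes whose groups of 3 did not overlap; Sphk2 lies near the line of equal differences (0.35 and 0.39), Ugcg and Sgms2 far to its right, and Smpd3 at 0.13 and 2.32.

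Markers of other liver cells were compared beside these genes. All 6 macrophage and Kupffer cell markers had a higher mean with AAV-CREB-H-ΔTC (median log2 difference 0.44), and the log2 of their summed signal was 11.16 to 11.94 with AAV-CREB-H-ΔTC and 10.76 to 11.57 with AAV-GFP. Replicate 3 was the lowest array of each group in that sum. The same held for 8 of the 33 sphingolipid genes (24.2%) and for 15.7% of all genes. Both measured B cell markers, Cd79a and Ms4a1, were higher without overlap, as were 6.25% of all genes. For Ms4a1 the nearest arrays all but tied, at 4.549 with AAV-CREB-H-ΔTC and 4.548 with AAV-GFP. The summed signal of both markers was 5.92 to 6.41 with AAV-CREB-H-ΔTC, against 5.57 to 5.84 with AAV-GFP. Endothelial markers (5 of 6 higher, summed 11.82 to 12.06 with AAV-CREB-H-ΔTC and 11.65 to 12.02 with AAV-GFP) and stellate cell markers (5 of 6 higher, summed 11.91 to 12.28 with AAV-CREB-H-ΔTC and 11.73 to 12.05 with AAV-GFP) overlapped between the groups. None of these markers passed, no marker can be read as absent on this scale, and the part of these cells in the sphingolipid genes' differences was not tested. Of the 5 measured cholangiocyte markers 4 were higher (median 0.25), with overlapping sums (7.20 to 7.23 with AAV-CREB-H-ΔTC and 7.11 to 7.30 with AAV-GFP). Krt19 (0.38, SE 0.12) and Sox9 (-0.36, SE 0.11) did not overlap, in opposite directions, and neither passed. T cell markers (4 of 4 measured), neutrophil markers (3 of 3) and pancreatic markers (3 of 4) had overlapping sums, and none of the 4 erythroid markers was measured under its symbol.

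The wider pathway was described through 6 lists of neighbouring genes, in which 68 of 72 symbols were measured (Cert1 and Col4a3bp name the same gene). None passed over all probe sets, and at an unadjusted p under 0.05 there were 5 higher and 1 lower (8.82% of 68, against 5.73% of all genes). The groups did not overlap in 13 of them (19.1%, against 12.3% of all genes), 8 higher and 5 lower, and these counts were not tested. In the list of sphingolipid breakdown, mostly lysosomal, 7 of 12 genes were higher (median 0.04). Of the 12, 4 (33.3%) were higher without overlap, against 6.25% of all genes. The list also holds Gba2, Neu3 and Smpdl3b, which act mainly outside the lysosome, and Smpdl3b is among the 4. Hexa, a subunit of the hexosaminidase that degrades ganglioside GM2, read 9.56, 9.27 and 9.44 with AAV-CREB-H-ΔTC and 9.20, 9.16 and 8.82 with AAV-GFP (difference 0.36, SE 0.14, adjusted p = 0.715). Smpdl3a, a phosphodiesterase related to acid sphingomyelinase, differed by 0.27 (SE 0.10), but the mean of its 2 probe sets gave 0.12. The sialidase gene Neu1 differed by 0.23 (SE 0.13) and Smpdl3b by 0.13 (SE 0.10). Neu1 was at 0.12 without AAV-GFP replicate 2. Gm2a, the activator protein for ganglioside breakdown, differed by 0.12 (SE 0.16).

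Among genes that build glycosphingolipids beyond Ugcg, 7 of 13 were higher (median 0.04). Gal3st1, which makes sulfatide, differed by 0.47 (SE 0.18, adjusted p = 0.714). The ganglioside enzymes B4galnt1 and St8sia1 differed by 0.24 (SE 0.17) and -0.12 (SE 0.09), the lactosylceramide synthase B4galt6 by 0.33 (SE 0.28) and the galactosylceramide synthase Ugt8a by 0.13 (SE 0.13). With 1 array left out, B4galnt1 was between 0.05 (without AAV-GFP replicate 1) and 0.37 (without AAV-GFP replicate 3), B4galt6 between 0.09 (without AAV-GFP replicate 3) and 0.56 (without AAV-CREB-H-ΔTC replicate 3), and Ugt8a between 0.06 (without AAV-CREB-H-ΔTC replicate 2) and 0.22 (without AAV-GFP replicate 2).

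Among the lipid transfer genes 6 of 9 were higher (median 0.04). Cert1, which carries ceramide from the endoplasmic reticulum to the Golgi sphingomyelin synthase, read 8.94, 8.76 and 8.98 with AAV-CREB-H-ΔTC and 8.56, 8.79 and 8.79 with AAV-GFP (difference 0.18, SE 0.12, adjusted p = 0.838). Plekha8, which carries glucosylceramide, differed by 0.42 (SE 0.21; 0.21 without AAV-GFP replicate 3) and the glycolipid transfer gene Gltp by 0.21 (SE 0.18). Mttp, which loads lipid, ceramide included, onto lipoproteins, and the sterol exporter Abca1 were lower without overlap, by -0.20 (SE 0.11) and -0.20 (SE 0.12). The nearest arrays of Abca1 were at 9.264 with AAV-CREB-H-ΔTC and 9.275 with AAV-GFP. The difference of Abca1 was -0.07 over replicates 1 and 2 and -0.46 between the arrays of replicate 3. With 1 array left out, Gltp was between 0.06 (without AAV-GFP replicate 3) and 0.36 (without AAV-GFP replicate 2). Cert1 was at 0.10 without AAV-GFP replicate 1, Mttp at -0.13 without AAV-CREB-H-ΔTC replicate 1 and Abca1 at -0.12 without AAV-GFP replicate 3.

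Of the genes that handle sphingosine 1-phosphate outside the list of members, 6 of 10 were higher (median 0.06). The lipid phosphate phosphatases Plpp1 and Plpp2 differed by 0.19 (SE 0.12) and 0.31 (SE 0.18), the receptor S1pr4 by -0.16 (SE 0.14), the exporter Mfsd2b by 0.09 (SE 0.11) and Aldh3a2, which oxidises the aldehyde left by the lyase, by 0.08 (SE 0.13). With 1 array left out, Plpp1 was as low as 0.12 (without AAV-GFP replicate 1) and Plpp2 as low as 0.19 (without AAV-CREB-H-ΔTC replicate 2). S1pr4 was between -0.26 (without AAV-GFP replicate 2) and -0.08 (without AAV-CREB-H-ΔTC replicate 3), Mfsd2b between 0.04 (without AAV-GFP replicate 2) and 0.15 (without AAV-GFP replicate 3), and Aldh3a2 between 0.015 (without AAV-CREB-H-ΔTC replicate 1) and 0.18 (without AAV-CREB-H-ΔTC replicate 3). The genes that supply and elongate acyl chains had 11 of 16 higher (median 0.08). Elovl1, the elongase that feeds very long chain ceramides, read 7.73, 7.92 and 7.77 with AAV-CREB-H-ΔTC and 7.23, 7.49 and 7.72 with AAV-GFP (difference 0.32, SE 0.15, adjusted p = 0.751; 0.20 without AAV-GFP replicate 1), with no overlap between the groups. The nearest arrays of Elovl1 all but tied, at 7.729 with AAV-CREB-H-ΔTC and 7.723 with AAV-GFP. The elongases of polyunsaturated fatty acids Elovl2 and Elovl5 differed by 1.32 (SE 0.16, adjusted p = 0.347) and 0.91 (SE 0.17, adjusted p = 0.556). Both were also higher without overlap, as were 6.25% of all genes. The elongation enzymes Tecr and Hacd1 differed by 0.49 (SE 0.29) and -0.42 (SE 0.22). Without AAV-CREB-H-ΔTC replicate 3, Tecr was at 0.22 and Hacd1 at -0.18, and without AAV-CREB-H-ΔTC replicate 2 Hacd1 was at -0.64. The difference of greatest size in this list, picked out after its values were seen, was that of the elongase Elovl3, which read 6.74, 7.11 and 10.93 with AAV-CREB-H-ΔTC and 9.56, 8.68 and 12.19 with AAV-GFP (difference -1.88, SE 1.31, adjusted p = 0.848). Replicate 3, which has Y-linked signal, was the highest array of both groups, and the groups overlapped. The difference was -3.22 without AAV-CREB-H-ΔTC replicate 3 and -0.86 without AAV-GFP replicate 3.

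In the last list, of other regulators, 4 of 8 were higher (median 0.01). Adipor2, an adiponectin receptor with ceramidase activity, read 10.92, 10.96 and 10.26 with AAV-CREB-H-ΔTC and 11.23, 11.41 and 11.25 with AAV-GFP, without overlap (difference -0.58, SE 0.20, adjusted p = 0.686), and the difference was -0.36 without AAV-CREB-H-ΔTC replicate 3. Tlcd2 differed by 0.28 (SE 0.18), Smpd5 by -0.12 (SE 0.11), Nsmaf, an adaptor of neutral sphingomyelinase, by 0.10 (SE 0.11) and Rtn4, which is known to restrain serine palmitoyltransferase in endothelial cells, by -0.20 (SE 0.31). With 1 array left out, Tlcd2 was between 0.14 (without AAV-CREB-H-ΔTC replicate 2) and 0.42 (without AAV-GFP replicate 1), Smpd5 between -0.18 (without AAV-GFP replicate 3) and -0.05 (without AAV-GFP replicate 1), and Nsmaf between 0.04 (without AAV-GFP replicate 3) and 0.15 (without AAV-CREB-H-ΔTC replicate 2).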

How the data were processed

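Total RNA of 6 mouse livers was hybridised to 1 array each. The authors deposited log2 signals, 1 for each probe set and array, and the submitters' processing notes name the Transcriptome Analysis Console as the software. Its version, the summarisation of probes, the normalization and the genome build are not stated there. The log2 scale was inferred from the range of the values, 1.42 to 13.9. No detection calls were used, so a difference between dim signals can come out too small. Scan batches were not analysed here.

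Groups came from the sample titles, which call the mice biological replicates, and no 2 arrays held identical values. limma 3.58.1 (R 4.3.3) was fitted to the 41345 probe sets with the group as its only term (lmFit, eBayes). P-values are two-sided and Benjamini-Hochberg adjusted over the table, with a call at 0.05, and intervals are 95%. The fit was tested on simulated data with independent noise for each value. How often it recovers differences as small as those of the sphingolipid genes is not given here. Symbols came from the platform annotation, in which 23521 probe sets had 1 symbol and 1814 several. All 33 measured members had the same symbol in the RefSeq table of GRCm38.p6.

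The members and lists were chosen with earlier results of these data known. Signals were given array by array for the 14 members with the lowest unadjusted p and any other without overlap, for Creb3l3, and, chosen after their values were seen, for Asah1, Spns2 and Elovl3; Krt19 and Sox9 were named after their values were seen too. Of each related list up to 5 genes were named by lowest p, some of them array by array. Alternatives changed the normalization (quantile, median centring), the filter (dimmest 25% or 50% left out), the variance model (trend, robust trend, array weights), the terms (replicate block, Y-linked signal as a mean of Kdm5d, Eif2s3y and Uty over 5), the arrays (each left out in turn, 4 arrays that lack Y-linked signal) and the features (1 probe set per gene, mean of the probe sets). Figures used matplotlib 3.10.9.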

Additional observations from a re-analysis of the deposited data

How the results depend on the processing

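No sphingolipid gene passed under any of the 18 alternatives run, with a lowest adjusted p of 0.383. Of the 33 genes, 19 kept their direction in every fit and 14 turned sign in at least 1. Sphk2, Smpd2, Ormdl3, Ugcg, Sgms2 and Cers6 were among the 19. No scaling moved the median log2 difference of all probe sets by over 0.1 (-0.015, against 0.005 after quantile normalization and 0.003 after centring).

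The number of probe sets called, 2, was 0 with the replicate number as a block and 1 with a term for Y-linked signal. It was 0 on the 4 arrays without that signal, and 0 to 2 with 1 array left out. Fits with fewer arrays or more terms have fewer degrees of freedom. With 1 probe set per gene, which leaves fewer to adjust over, the number was 3. The replicate block called 0 sphingolipid genes too. The numbers share no stated origin: same-numbered arrays deviated together with r of 0.08, 0.13 and 0.33, and AAV-CREB-H-ΔTC replicate 1 correlated better with AAV-GFP replicate 2 (0.12) than with its own number. The median of the sphingolipid genes, 0.037, was 0.099 on the 4 arrays without Y-linked signal and 0.005 to 0.077 with 1 array left out.

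Signs that turned belong to differences of at most 0.16 in size, Rtn4 (-0.20) aside, and the cause was not tested. After quantile normalization Sptssb was 0.026 and Acer1 0.023, and after centring they were 0.010 and 0.005. With array weights Acer1 was 0.007 and Sgpl1 0.014. On the 4 arrays without Y-linked signal Sptlc3 was -0.100, Ormdl1 0.099, Acer2 -0.013, Acer3 0.106 and Sgpl1 0.150. With 1 array left out, Sptlc3 ran from -0.061 to 0.19, Sptssb from -0.17 to 0.17, Cers2 from -0.018 to 0.097, Cers5 from -0.105 to 0.185, Ormdl1 from -0.28 to 0.056 and Ormdl2 from -0.018 to 0.083. Asah1 ran from -0.13 to 0.28, Acer1 from -0.15 to 0.072, Acer2 from -0.073 to 0.32, Acer3 from -0.17 to 0.12, Cerk from -0.058 to 0.24, Sgpl1 from -0.17 to 0.11, Spns2 from -0.12 to 0.39 and Fa2h from -0.21 to 0.079. Gm2a ran from -0.00 to 0.25 and Rtn4 from -0.44 to 0.14. No background level was used, so how far signal over background limits dim probe sets was not tested.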
